A study of Mus musculus with 4 samples.

Results

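Ferritin and the handling of iron were followed through 9 mouse genes, taken from a table of 50600 gene rows by their names: Ftl1, Fth1, Tfrc, Slc11a2, Slc40a1, Ireb2, Aco1, Ncoa4 and Pcbp1. Ftl1 was chosen by its measured rise in Myh9 KO cells among the highest values of the table, so its difference between the groups is given as a description and was not tested. The other 8 genes were added as parts of the same pathway, with earlier results of these data known. RNA-seq was done on 2 libraries of Myh9 KO cells and 2 libraries of wild-type (WT) cells. Both groups are OG2ES mouse embryonic stem cells derived from inner cell mass, grown without further treatment in mES medium with 2i, a pair of kinase inhibitors used to keep stem cells naive. Myh9 codes for a myosin heavy chain, that of non-muscle myosin IIA. How Myh9 was disrupted and whether the KO cells are 1 clone are not given in the labels, so loss of Myh9 and a peculiarity of the line cannot be told apart. Nothing in the labels says whether replicates are separate cultures, and the p-values therefore measure a spread between libraries that may be technical.

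Ferritin is a hollow protein shell, built from light chains (Ftl1) and iron-oxidising heavy chains (Fth1), in which cells store iron in a safe form. Iron enters on transferrin through the transferrin receptor (Tfrc), crosses the endosomal membrane through the transporter DMT1 (Slc11a2), is handed to ferritin by the chaperone Pcbp1, is freed again when Ncoa4 carries ferritin to the lysosome, and leaves the cell through ferroportin (Slc40a1). The iron regulatory proteins IRP1 (Aco1) and IRP2 (Ireb2) bind hairpins called iron-responsive elements when iron is scarce. Bound at the 5' end of ferritin and ferroportin mRNAs they block translation, and bound at the 3' end of the Tfrc mRNA they protect it from decay, so the mRNA levels measured here show the second action more directly than the first.

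The hairpins are shown because their place, at the 5' end of the ferritin and ferroportin mRNAs and at the 3' end of the Tfrc mRNA, goes with the different controls. Some transcripts of Slc11a2 are also known to carry such an element in the 3' UTR. Transcripts of GENCODE vM21 (mm10) were searched on the transcribed strand for a bulged C, 5 stem bases, the loop CAGTGN and 5 bases that pair with the stem, G-T pairs allowed. Each sequence has 29 bases, is written 5' to 3' in DNA letters and has its 6-base loop in capitals.
Ftl1, 5' UTR, minus strand, chr7:45459779-45459807: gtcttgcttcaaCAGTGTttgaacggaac
Fth1, 5' UTR, plus strand, chr19:9982732-9982760: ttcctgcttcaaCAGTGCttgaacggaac
Slc40a1, 5' UTR, minus strand, chr1:45925465-45925493: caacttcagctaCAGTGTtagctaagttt
Tfrc, 3' UTR, plus strand, chr16:32631219-32631247: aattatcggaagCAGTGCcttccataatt
Tfrc, 3' UTR, plus strand, chr16:32631598-32631626: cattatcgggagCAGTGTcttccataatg
Tfrc, 3' UTR, plus strand, chr16:32631663-32631691: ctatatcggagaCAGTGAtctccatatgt
Tfrc, 3' UTR, plus strand, chr16:32631710-32631738: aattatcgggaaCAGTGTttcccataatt
The Ftl1 and Fth1 elements were identical at 26 of 29 bases, while those of Ftl1 and Slc40a1 shared 13 of 29. Tfrc held 4 matches, all in its 3' UTR, and no sequence of this form was found in the transcripts of Slc11a2, Ireb2, Aco1, Ncoa4 or Pcbp1. The search also found none in Epas1, Cdc14a and Cdc42bpa, 3 mRNAs known to carry an element, so it misses known elements and a missing match says little. Of 10450 tested protein-coding genes, 1.62% had a match anywhere, 0.201% had one in a 5' UTR and 0.775% had one in a 3' UTR. A match describes the sequence and does not show that a protein binds it.

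The deposited values are whole numbers whose totals were 992245 and 992317 in the Myh9 KO libraries and 992128 and 992098 in the WT libraries, as per-million values with dropped decimals would give. The sequencing depth is therefore unknown, and because scaling by gene length is not stated, levels are compared between libraries and not between genes. Between 11653 and 11947 genes were above 0 in a library. The summed values of mitochondrial genes made up 0.705% and 0.612% of the total in Myh9 KO and 1.19% and 1.21% in WT, and their part in the results was not tested. Myh9 itself had values of 9 and 9 in Myh9 KO cells and 83 and 100 in WT cells. All 5 markers of pluripotent stem cells were present, with summed values of 4565 and 4620 in Myh9 KO and 4476 and 4624 in WT, mostly Pou5f1. Within that list Sox2 had values of 126 and 121 in Myh9 KO and 177 and 183 in WT, and Zfp42 had 210 and 181 in Myh9 KO and 140 and 142 in WT. Of 10 fibroblast markers 7 were listed at 0 throughout (sums 40 and 41 in Myh9 KO, 54 and 56 in WT, mostly Fstl1), as were 8 of 10 endoderm markers (sums 5 and 6 against 1 and 2, mostly Gata4). Of the erythroid markers 5 of 8 were at 0 (sums 0 and 3 in Myh9 KO, 1 and 0 in WT) and of the macrophage markers 6 of 7 (sums 34 and 31 in Myh9 KO, 27 and 29 in WT, all Cd68). The part of other cells in the results below was not tested. In bulk samples fewer cells of a type and less RNA per cell cannot be told apart.

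A gene is called here where its Benjamini-Hochberg adjusted p was under 0.05, over the 11231 genes averaging at least 1, in both of 2 limma fits: one on the deposited values and one with random decimals added to them. By this rule 5.14% of the genes tested were higher and 5.80% were lower in Myh9 KO. The first fit alone gave 7.17% higher and 7.96% lower. Of the 9 members 8 passed the filter on low values, Slc40a1 being the exception. Of the 7 tested other than Ftl1, Pcbp1 rose, none fell, and Ncoa4 passed only the fit with random decimals. The share of all tested genes whose groups did not overlap is not given here. A lack of overlap between 2 and 2 libraries is therefore only a description and no support for a difference.

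Ftl1 and Fth1 code for the chains of 1 protein shell. Ftl1, the light chain (ENSMUSG00000050708, mm10 chromosome 7, 45457944 to 45459884, minus strand), had values of 15718 and 16002 in Myh9 KO and 12434 and 12052 in WT. Both Myh9 KO libraries lie above both WT libraries, with a log2 fold change of 0.37. Its share of the summed values was 1.58% and 1.61% in Myh9 KO and 1.25% and 1.21% in WT. By its value it ranked 2 in both Myh9 KO libraries and 1 in both WT libraries. Quantile normalization, which gives a rank the same value in every library, therefore turned its log2 fold change to -0.12. The other scalings tried left it between 0.37 and 0.38.

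Fth1, the heavy chain that oxidises iron (ENSMUSG00000024661, chromosome 19, 9982703 to 9985092, plus strand), had values of 2346 and 2372 in Myh9 KO and 2288 and 2191 in WT. The groups did not overlap, but the difference was small and was not called (log2 fold change 0.08, SE 0.03, limma adjusted p = 0.218). Its fold had a 95% interval of 0.982 to 1.13. The ratio of the Ftl1 value to the Fth1 value was 6.70 and 6.75 in Myh9 KO and 5.43 and 5.50 in WT, so it was higher in both Myh9 KO libraries. This ratio contains the value that chose Ftl1 and was not tested.

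Ftl1 has many near-copies in the mouse genome, which bears on how firmly its value can be read. Of the 50-base words of its transcripts, 50.9% also occur in other genes, most of them in Ftl1-ps1, which shares 47.3% of them. The 5 ferritin light chain copies that share the most words, Ftl1-ps1, Gm15590, Ftl2-ps, Ftl1-ps2 and Gm12164, held 22 and 24 in sum in Myh9 KO and 15 and 23 in WT. These sums overlap between the groups. The rows of the copies come from the same processing as the Ftl1 row. They therefore cannot show how reads from shared words were divided, and the value of Ftl1 is less certain for it. Fth1 shares 1.59% of its words, with a pseudogene listed at 0 in all 4 libraries. Gm10252, on the strand opposite to Ftl1, had values of 7 and 10 in Myh9 KO and 7 and 6 in WT.

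**Figure D1:**
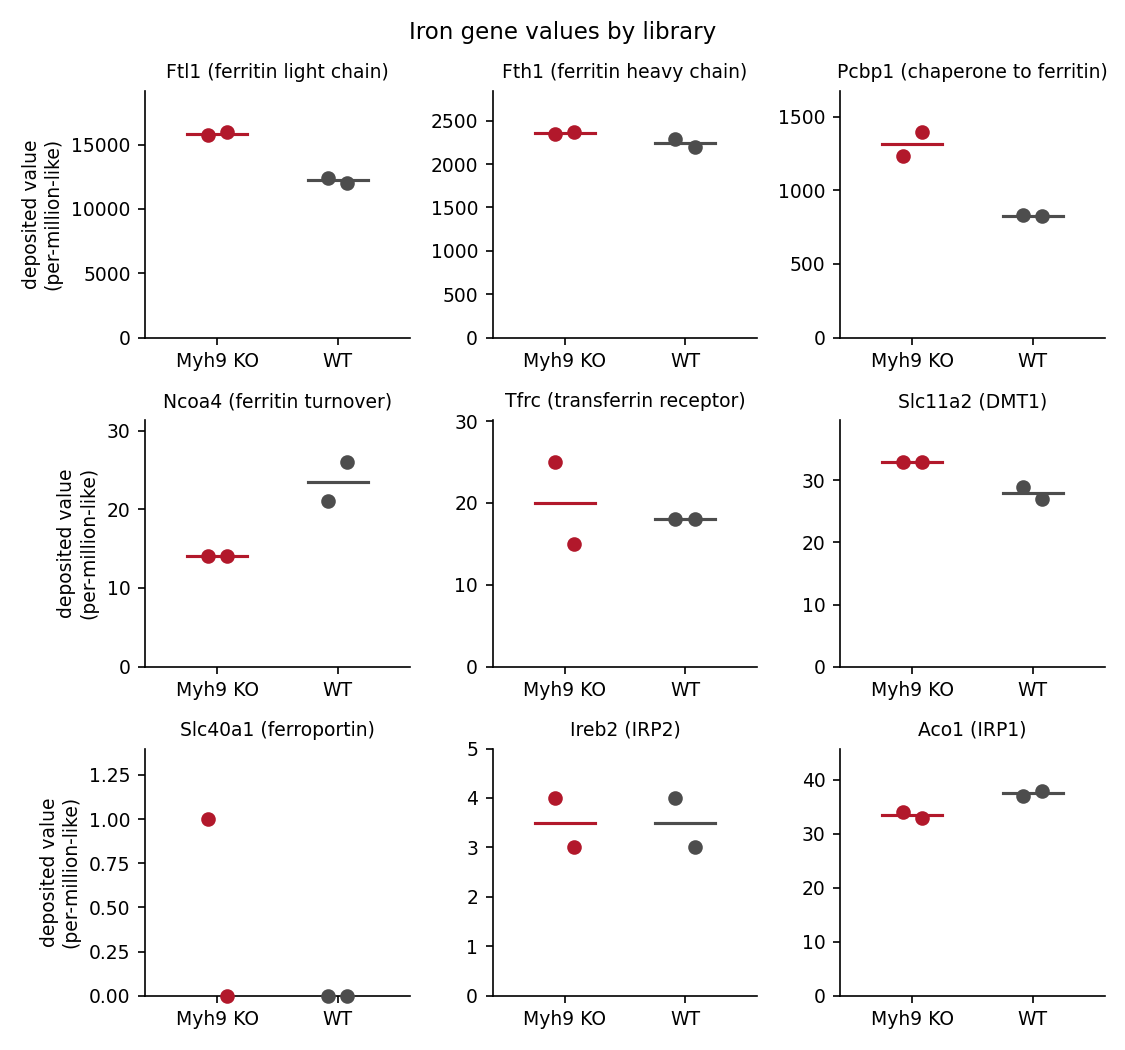
Deposited per-million-like values of the 9 iron genes in each library (points) with the mean of 2 libraries (line; none for Slc40a1), Myh9 KO left and WT right in each panel, every axis starting at 0. Ftl1, Fth1, Slc11a2 and Pcbp1 lie higher and Ncoa4 and Aco1 lower in both Myh9 KO libraries. Of these, Pcbp1 alone was called, and Ftl1 was not tested. For Tfrc the Myh9 KO libraries lie on either side of WT, at 25 and 15 against 18 and 18.

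Pcbp1, the RNA-binding protein that delivers iron to ferritin (ENSMUSG00000051695, chromosome 6, 86524492 to 86526321, minus strand), rose in Myh9 KO. Its values were 1232 and 1397 in Myh9 KO and 831 and 823 in WT. Both Myh9 KO libraries stand well above WT, and they differ from each other more than the WT libraries do. The log2 fold change was 0.67 (SE 0.08), with a limma adjusted p = 0.0443, and a limma adjusted p = 0.000196 with random decimals. Its fold had a 95% interval of 1.31 to 1.92. With same-numbered libraries treated as a block it was not called (limma adjusted p = 0.126). Leaving out WT 1 or WT 2 ended the call, with limma adjusted p = 0.232 and 0.237, at log2 fold changes of 0.67 and 0.66. None of its 50-base words occurs in another gene, and the antisense gene 1600020E01Rik that overlaps it had values of 10 and 6 in Myh9 KO and 8 and 7 in WT.

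Pcbp1 lies on chromosome 6, whose genes were higher in Myh9 KO as a group. The 555 tested genes of chromosome 6 had a median log2 fold change of 0.45 (a fold of 1.36), and 30.5% of them were called higher, against 3.25% of the genes outside chromosomes 6 and 8. Pcbp1 was 0.22 above the chromosome median on the log2 scale, and 74.1% of the chromosome's genes had a smaller log2 fold change. The part of the chromosome in the rise of Pcbp1 was not tested.

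Ncoa4, the receptor that takes ferritin to the lysosome for iron release (ENSMUSG00000056234, chromosome 14, 32159865 to 32179855, plus strand), had lower values in Myh9 KO but met only 1 of the 2 criteria. Its values were 14 and 14 in Myh9 KO and 21 and 26 in WT. The groups did not overlap, and the spread lay within WT. The log2 fold change was -0.70 (SE 0.13, limma adjusted p = 0.0832), and its fold had a 95% interval of 0.449 to 0.844. With random decimals, where 12.0% of all genes were lower, its adjusted p was 0.00603. It was called by both fits without WT 1 (log2 fold change -0.85, larger adjusted p = 0.0164), with median-of-ratios scaling (0.0365) and with the trend on GC content and gene length removed (0.0163). It was not called without WT 2 (log2 fold change -0.55, larger adjusted p = 0.0528), without Myh9 KO 1 (0.292) or without Myh9 KO 2 (0.316).

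The value of Ncoa4 is shared with a copy. Gm6768, a processed pseudogene, has 94.5% of its 50-base words in Ncoa4 and covers 17.9% of the words of Ncoa4. Gm6768, named here after its values were seen, had values of 13 and 12 in Myh9 KO and 16 and 18 in WT. Added together, both rows gave 27 and 26 in Myh9 KO and 37 and 44 in WT. The sum was lower in both Myh9 KO libraries. It contains the Ncoa4 row, so it gives no separate support for the lower Ncoa4 values.

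The genes of iron uptake gave no call. Tfrc, the receptor that takes up transferrin-bound iron (ENSMUSG00000022797, chromosome 16, 32608920 to 32632794, plus strand), had values of 25 and 15 in Myh9 KO and 18 and 18 in WT. The Myh9 KO libraries lie on either side of WT, and the fold could not be narrowed beyond an interval of 0.512 to 2.25 (log2 fold change 0.10, SE 0.31, limma adjusted p = 0.869). Its direction rested on a single library: without Myh9 KO 2 it was called higher (log2 fold change 0.45, larger adjusted p = 0.0407), and without Myh9 KO 1 the log2 fold change was -0.25, with adjusted p = 0.0329 by limma and 0.205 with random decimals.

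Tfrc has a low GC content of 39.4%, and genes of low GC content were lower in Myh9 KO 2 than in Myh9 KO 1. Among the 432 tested genes between 37.4% and 41.4% GC, the median log2 difference of Myh9 KO 2 minus Myh9 KO 1 was -0.21, and that of Tfrc was -0.70. With the trend on GC content and length removed, the log2 fold change of Tfrc was 0.44 and was still not called (larger adjusted p = 0.10). Tested genes within 2 GC points of Tfrc, Ftl1, Pcbp1 and Ncoa4 had median log2 fold changes of -0.24, 0.11, 0.11 and -0.11. With the trend removed, Ftl1, Pcbp1 and Ncoa4 themselves stood at 0.37, 0.62 and -0.60. The part of base composition in the values of Tfrc and of these genes was not tested.

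Slc11a2, the endosomal transporter DMT1 (ENSMUSG00000023030, chromosome 15, 100387898 to 100425072, minus strand), had values of 33 and 33 in Myh9 KO and 29 and 27 in WT. The Myh9 KO values were slightly higher without overlap, a difference that was not called (log2 fold change 0.23, SE 0.05; adjusted p = 0.0938 by limma, 0.0943 with random decimals). The 95% confidence interval of its fold was 1.05 to 1.31. Slc40a1, ferroportin, the known exporter of iron from mammalian cells (ENSMUSG00000025993, chromosome 1, 45908068 to 45926523, minus strand), was listed at 1 and 0 in Myh9 KO and at 0 and 0 in WT. It was therefore too low to compare.

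The iron regulatory proteins gave no call either. Aco1, which serves as an aconitase when it holds an iron-sulphur cluster and as IRP1 when it does not (ENSMUSG00000028405, chromosome 4, 40143081 to 40198338, plus strand), had values of 34 and 33 in Myh9 KO and 37 and 38 in WT. The groups were close but did not overlap (log2 fold change -0.16, SE 0.03; adjusted p = 0.0789 by limma, 0.211 with random decimals), and the interval of the fold was 0.836 to 0.96. Ireb2, which codes for IRP2 (ENSMUSG00000032293, chromosome 9, 54863789 to 54912530, plus strand), had values of 4 and 3 in Myh9 KO and 4 and 3 in WT. At so low a value the interval of the fold ran from 0.617 to 1.62, so a change of moderate size was not detectable.

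The wider pathway was described with 7 lists holding 108 genes, 106 of which were in the table and 79 of which were tested. Fthl17c and Fthl17d passed the filter on low values through WT alone, so they had to be lower in Myh9 KO, and they are left out of the counts given here. Of the other 77, 5 rose and 7 fell, 15.6% in either direction, against 10.9% of all genes tested. No test of the lists was made. The split moved with the scaling. With the GC and length trend removed 11 of the 77 were higher and 4 lower (14.3% and 5.2%). Calls over all 11231 genes tested then also rose, from 577 higher and 651 lower to 1315 and 1243. With quantile normalization 5 of the 77 were higher and 5 lower, beside 657 and 626 of all genes. What in the trend moved it was not tested. With same-numbered libraries treated as a block, none of the genes called among the 77 kept its call. Of the 12 genes, Hmox1 and Nfu1 were called with any 1 library left out. The others lost the call without at least 1 library. Among them Glrx3, Ciao2a, Ciao3, Pgrmc1 and Slc25a38 lost it whichever library was left out.

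Genes of iron entry and release gave no call. Of the 23 genes listed 8 were tested and limma called 0, also with random decimals, with none at an unadjusted p under 0.05. Their median log2 fold change was 0.08, against 0 for all genes tested. Snx3, which sorts the transferrin receptor back to the cell surface, had values of 263 and 253 in Myh9 KO and 239 and 224 in WT (log2 fold change 0.16, adjusted p = 0.168). Mcoln1, an iron-conducting channel of lysosomes on chromosome 8, had values of 47 and 48 in Myh9 KO and 39 and 44 in WT (0.19, adjusted p = 0.227). With the GC and length trend removed, Snx3 (0.29) and Steap1 (0.50), a member of the Steap metalloreductase family that is named here after its values were seen, were called higher. Listed at 0 in every library were 11 genes, among them those of hepcidin (Hamp), ceruloplasmin (Cp) and hephaestin (Heph), which act in the systemic control and export of iron. A listed 0 is not evidence that a gene is silent, since the values are whole numbers of unknown depth.

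Genes that hand on iron or control the IRPs gave 2 falls and no rise among 10 tested (5.80% of all genes fell), with a median log2 fold change of 0.01. Glrx3, a glutaredoxin that carries iron-sulphur clusters in the cytosol, fell to 110 and 104 in Myh9 KO, against 143 and 149 in WT (log2 fold change -0.45, SE 0.04, limma adjusted p = 0.0342). Skp1, a shared subunit of the ubiquitin ligases that include the IRP2-degrading one, fell to 167 and 157 in Myh9 KO, against 215 and 213 in WT (-0.40, SE 0.04, adjusted p = 0.0343). With the GC and length trend removed the log2 fold change of Skp1 shrank to -0.06 and was not called. Fbxl5, the iron-sensing subunit of that ligase and named here after its values were seen, had values of 15 and 12 in Myh9 KO and 18 and 21 in WT and passed only with random decimals (adjusted p = 0.0376, against 0.174 by limma).

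Genes of mitochondrial iron and iron-sulphur cluster assembly gave 1 rise and 2 falls among 26 tested, 11.5% in either direction beside 10.9% of all genes, with a median log2 fold change of 0.01. Nfu1, which passes finished clusters to mitochondrial enzymes, rose to 203 and 206 in Myh9 KO, against 129 and 126 in WT (log2 fold change 0.68, SE 0.02, limma adjusted p = 0.00426). It lies on chromosome 6, where 75.3% of tested genes had a smaller log2 fold change. Hscb, the co-chaperone of cluster transfer, fell to 23 and 24 in Myh9 KO, against 38 and 38 in WT (-0.67, SE 0.03, adjusted p = 0.00996). Cisd1, an outer membrane protein that binds an iron-sulphur cluster, fell to 136 and 133, against 157 and 156 in WT (-0.22, SE 0.02, adjusted p = 0.025). With the GC and length trend removed neither fall was called, at -0.33 for Hscb and -0.06 for Cisd1.

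In the cytosolic iron-sulphur assembly list 2 of 9 tested genes fell and none rose, with a median of -0.08, where 5.80% of all genes fell. Ciao2a, whose protein matures IRP1 with its cluster, fell to 64 and 62 in Myh9 KO, against 79 and 81 in WT (log2 fold change -0.34, SE 0.03, limma adjusted p = 0.0255). With the GC and length trend removed its log2 fold change was 0.01, so its direction is uncertain. Ciao3, another factor of the pathway, fell to 20 and 21 in Myh9 KO, against 26 and 26 in WT (-0.33, SE 0.03, adjusted p = 0.0357). With that trend removed the log2 fold change of Ciao3 was -0.50, and Ciao2b (0.30) and Nubp1 (-0.21), named here after their values were seen, were called higher and lower.

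In the haem list 4 of 21 tested genes rose, 19.0% beside 5.14% of all genes, with 1 fall and a median log2 fold change of 0.06. Hmox1, haem oxygenase 1, which breaks haem down and frees its iron, rose to 316 and 320 in Myh9 KO, against 219 and 223 in WT (log2 fold change 0.52, SE 0.02, limma adjusted p = 0.00494). It lies on chromosome 8, whose 646 tested genes had a median of 0.21 and of which 12.7% were called higher, and 87.6% of them had a smaller log2 fold change. Abcb6, a transporter of porphyrins, rose to 32 and 31, against 19 and 19 in WT (0.70, SE 0.03, adjusted p = 0.00678). Of the 5679 50-base words of Abcb6, 2840 also occur in Gm29253, which is listed at 0 in all 4 libraries, so its value is less certain. Slc48a1, a haem transporter of endosomes and lysosomes, rose to 22 and 23, against 17 and 17 in WT. Slc25a38, which serves haem synthesis in mitochondria and is named here after its values were seen, rose to 41 and 42, against 31 and 33 in WT. Pgrmc1, a haem-binding membrane protein, fell to 19 and 17 in Myh9 KO, against 28 and 29 in WT (-0.64, SE 0.07, adjusted p = 0.0408). With the GC and length trend removed its log2 fold change was -0.34, and it was still called.

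Of the other mRNAs known to carry an iron-responsive element, 2 of 5 were tested and limma called 0, also with random decimals and at an unadjusted p under 0.05. Epas1, which codes for HIF-2alpha, had values of 13 and 13 in Myh9 KO and 12 and 13 in WT (0.05 on the log2 scale, SE 0.05, limma adjusted p = 0.511).

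**Figure D2:**
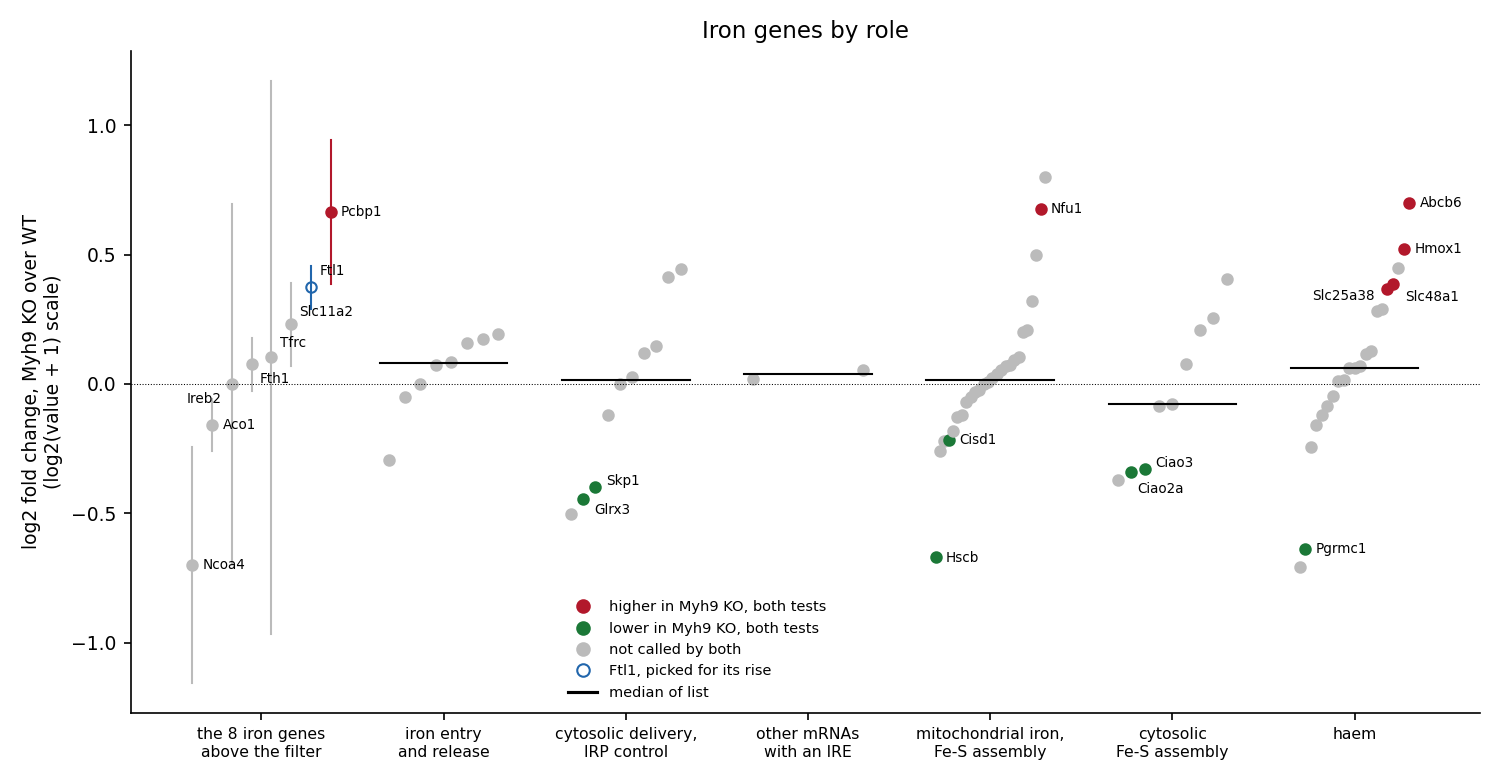
Log2 fold changes of Myh9 KO over WT (log2(value + 1) scale, vertical axis) for the 8 iron genes above the filter, with 95% confidence intervals, and for the tested genes of 6 wider lists, with list medians (black lines; the ferritin relatives are not drawn). Pcbp1 at 0.67 is the called gene among the members, Ftl1 (open circle) was picked for its rise, and the list medians lie between -0.08 and 0.08.

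The Fthl17 genes are an X-linked mouse family related to the ferritin heavy chain. Fthl17c was listed at 0 in both Myh9 KO libraries, against 4 and 7 in WT, and Fthl17d at 0 in both, against 2 and 2 in WT. No p-value is given for either, because they entered the fit through their WT values. The 6 Fthl17 rows summed to 1 and 0 in Myh9 KO and to 7 and 12 in WT. Of the 50-base words of Fthl17c and Fthl17d, 78.0% and 92.0% occur in other genes, so their single values are uncertain, and a listed 0 can be a failed estimate. Of the 14 relatives listed 12 were in the table, 3 were tested and 6 were listed at 0 in every library, Ftmt, the mitochondrial ferritin, among them.

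Outside chromosomes 6 and 8, 3 of 68 tested genes of the wider lists rose and 7 fell, the Fthl17 genes left out, against 3.25% and 6.24% of all tested genes there. On chromosomes 6 and 8, 2 of 9 rose and none fell, against 20.9% and 2.08% of the 1201 genes tested there. The log2 fold change was positive for all 5 of these genes on chromosome 8, where 73.5% of tested genes were positive, and for 3 of 4 on chromosome 6, where 85.8% were. Of the members, only Pcbp1 lies on either of these chromosomes. Ftl1 lies on chromosome 7, whose tested genes had a median log2 fold change of 0. The part of the chromosome in the value of Ftl1 was not tested.

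**Figure D3:**
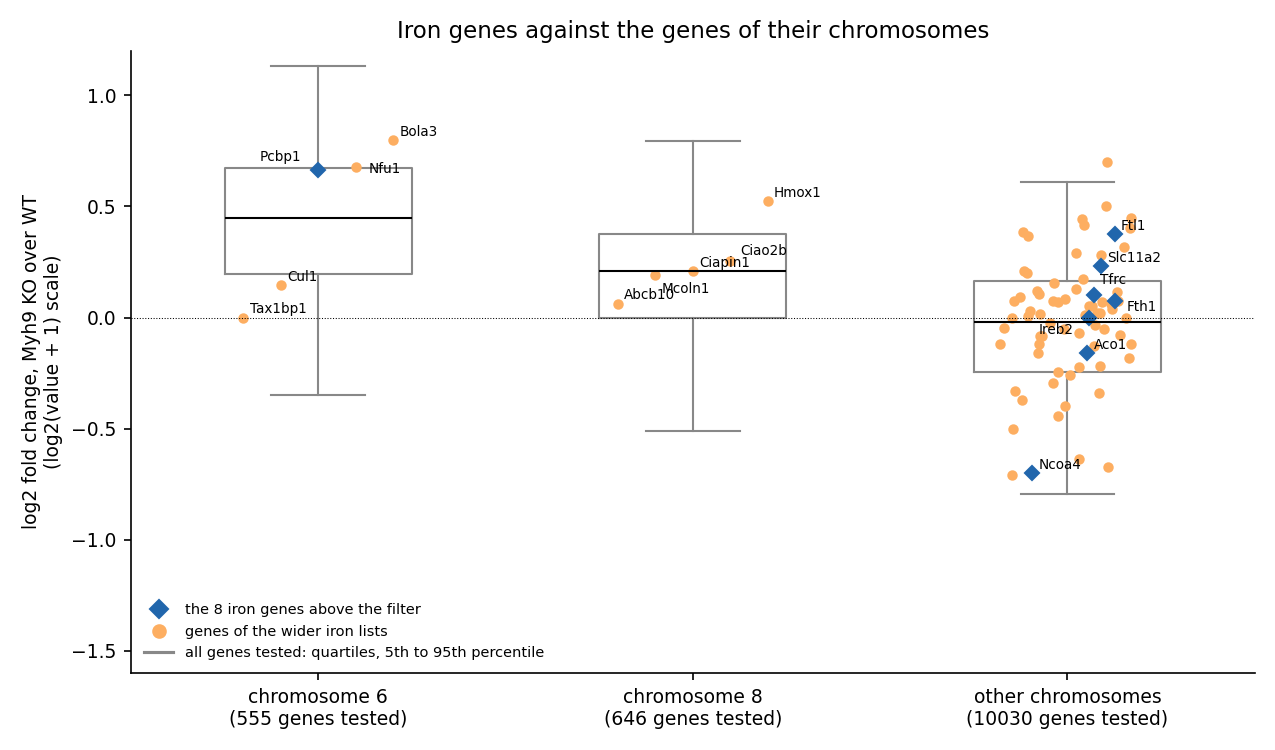
Log2 fold changes of Myh9 KO over WT (log2(value + 1) scale, vertical axis) for the iron genes on chromosome 6, chromosome 8 and the other chromosomes, over box plots of all tested genes there (median, quartiles, 5th to 95th percentile); Fthl17c and Fthl17d lie below the axis and are not drawn. Pcbp1 and Nfu1 lie near the upper quartile of chromosome 6, whose median is 0.45, and Ftl1 lies above the upper quartile of the other chromosomes.

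The likeness of other genes to Ftl1 was measured over the 4 libraries. Of 1432 named protein-coding genes outside the iron lists that averaged at least 100, 54 (3.77%) had a centred log2 profile over the 4 libraries within a Euclidean distance of 0.1 of that of Ftl1. The 5 nearest were Snrpf, a subunit of the spliceosome core (411 and 418 in Myh9 KO, 324 and 321 in WT), Mfsd10 (170 and 178, against 135 and 130), Slc25a4, the mitochondrial ADP/ATP carrier (165 and 166, against 128 and 129), Gdf3, a TGF-beta family ligand (255 and 262, against 198 and 200) and Coprs (155 and 160, against 122 and 123). Slc25a4 and Coprs lie on chromosome 8 and Gdf3 on chromosome 6, the chromosomes with raised medians. Likeness over 4 libraries in 2 groups describes little beyond a fold close to that of Ftl1.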

How the data were processed

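RNA-seq libraries were made from total RNA extracted with TRIzol, enriched on oligo-dT beads and reverse transcribed from random hexamers. The source is the labels' protocols, which describe no step that marks the strand. Bowtie2 2.2.5, RSEM 1.3.0 and bcl2fastq are named without a role, with the builds mm10 and hg38, per the submitters' processing notes. The deposited values, taken as a score, are whole numbers with nearly equal totals, not read counts, so the design's test for values that are not counts was used. Of 50600 identifiers 50376 were found in GENCODE vM21 (mm10), 93.0% of them with the same coordinates. Of 27 names turned into dates 26 were restored.

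Groups and replicates were taken from the sample titles. limma-trend (limma 3.58.1, R 4.3.3) was run on log2(value + 1) for genes averaging at least 1, Myh9 KO over WT, all 4 libraries, no block. A second fit added a uniform number between 0 and 1 to each value (25 draws, median adjusted p), since replicates with equal whole numbers show no spread. Adjusted p-values printed without a fit named come from the first. Fold changes on this scale understate the change of low values. All 9 members are named, with up to 4 called genes of each list by smallest adjusted p, or its 2 highest tested genes where none was called, and the 5 genes nearest Ftl1. The members and lists were chosen with earlier results of these data known. The log2 deviations of same-numbered libraries correlated at 0.0407, so the numbers were not taken to pair them. Alternatives were another pseudocount, other filters, each library left out, a replicate block, each fit alone, other scalings, removal of the trend on GC and length, and chromosomes 6 and 8 left out. The values of 1 further gene of the lists are not reported here.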

Additional observations from a re-analysis of the deposited data

How the results depend on the processing

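Over all genes, 577 were higher and 651 lower, 1 member other than Ftl1 was higher and 0 lower, and 5 and 9 genes of the wider lists were higher and lower. With 1 library left out these 6 counts ran from 130 to 334 and 190 to 400, from 0 to 2 and 0 to 1, and from 3 to 5 and 1 to 4; each such fit has a lone library in 1 group, assumed to vary like the other group. With the replicate block they were 10 and 44, 0 and 0, and 0 and 1. Pcbp1, Nfu1 and Hmox1 were then not called (larger limma adjusted p = 0.126, 0.0748 and 0.0569), at unchanged log2 fold changes. Same-numbered libraries share only a number. With random decimals alone the counts were 1236 and 1351, 1 and 1, and 10 and 12. With the trend on GC and length taken out they were 1315 and 1243, 1 and 1, and 11 and 6. Without genes of chromosomes 6 and 8 they were 304 and 577, 0 and 0, and 3 and 9, since Pcbp1 is left out. Median-of-ratios scaling called 1 member lower and quantile normalization 5 wider genes lower. The lower counts of the wider lists above include Fthl17c and Fthl17d where these were called, and both had to be lower. With the replicate block the 1 lower gene of these lists was Fthl17d. Leaving out both genes, a choice made after seeing the data, gave 5 and 7 for the wider lists. It gave 10 and 10 with random decimals alone, 11 and 4 with the trend on GC and length taken out, and 3 and 7 without chromosomes 6 and 8. The other counts, under these settings and under a pseudocount of 0.5, no filter, a mean of at least 5 and the limma fit alone, stayed within 1.5 times the main ones. The log2 fold change of Ftl1 turned to -0.12 with quantile normalization, since its rank differs between the groups, and that of Ciao2a to 0.0135 with the trend on GC and length taken out; the cause was not tested. Among members not called, Tfrc turned to -0.25 without Myh9 KO 1. With 2 libraries per group, whole-number values and unknown depth, small changes of genes listed under about 5, such as Ireb2 and Slc40a1, cannot be seen.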
